A study of Mus musculus with 34 samples.

Results

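Livers in which Srebf1 had been targeted by genome editing were set directly against livers in which Tbx3 had been targeted, without the control livers in the fit. Total RNA was sequenced from 5 Srebf1 knockout (KO) livers and 7 Tbx3 KO livers, which are 12 of the 34 livers of the series, 1 library per liver. Of the 35976 gene symbols in the table, 16977 had an FPKM (fragments by transcript length and sequencing depth) of 1 or more in at least 5 of these 12 livers and were tested. All mice of both groups were C57BL/6 animals homozygous for TetO-Cas9, a tetracycline-responsive Cas9 gene, and for Rosa-rtTA, the transactivator that switches it on. Each received an adeno-associated virus (AAV) with a guide RNA, against Srebf1 in one group and against Tbx3 in the other, and was fed a Western diet (WD) for 3 months. For the ages, the promoter behind the guide and the guide positions nothing is stated (not given in the sources used here), and both groups carry Cas9, rtTA and the virus. AAV need not reach every liver cell, so such a liver can hold edited and unedited cells. Nothing in the labels says that the livers of a group came from separate litters or days, so p-values measure the spread between these samples.

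Srebf1 encodes SREBP-1, a membrane-bound transcription factor that is cut free in the Golgi and switches on genes of fatty acid synthesis, above all after insulin. Its relative SREBP-2, from Srebf2, drives cholesterol synthesis and uptake when sterols are scarce. Tbx3 encodes a T-box factor that mostly represses transcription and that in liver is found in hepatocytes around the central vein, where Wnt signals are strong. A Western diet loads hepatocytes with triglyceride and cholesterol, the products of the genes that SREBP factors control.

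Implied depth, recovered from the steps of low FPKM values, was 2144000 to 2842000 counted reads in Srebf1 KO libraries and 2114000 to 3129000 counted reads in Tbx3 KO libraries. The livers held hepatocyte RNA by their markers: all 26 hepatocyte markers were tested, with a summed level of 159600 to 181800 FPKM in Srebf1 KO livers and 145400 to 166200 FPKM in Tbx3 KO livers. Tbx3 KO replicate 7 stood apart at the end of the first principal component (73.6), a component that carried 19.8% of the variance, with Tbx3 KO replicate 5 at its other end (-71.8) and the other livers at -35.3 to 22.2. The summed Kupffer cell and macrophage markers were 1627 to 2519 FPKM in Srebf1 KO livers, against 1641 to 2301 FPKM in Tbx3 KO replicates 1 to 6 and 5742 FPKM in replicate 7. In bulk liver, fewer cells of a type and less RNA per cell cannot be told apart. Results are therefore also given without Tbx3 KO replicate 7 and without the library labelled Srebf1 KO replicate 1, whose Srebf1 level is described next. The fit without both is called the 10-liver fit.

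Srebf1 mRNA was low in 4 of the 5 Srebf1 KO livers and high in the library labelled Srebf1 KO replicate 1. Srebf1 (GRCm38 chromosome 11, 60199089 to 60222581, minus strand, protein-coding) stood at 1908, 515.9, 498.8, 526.7 and 631.7 FPKM in the Srebf1 KO libraries, in order of replicate number 1 to 5. In Tbx3 KO livers it stood at 1220 to 2171 FPKM with a median of 1697, so that replicate 1 lay within the Tbx3 KO range and the other 4 lay below it. In the 6 control livers given guides against GFP or LacZ it stood at 1095 to 2177 FPKM. The log2 difference, Srebf1 KO minus Tbx3 KO on the log2(FPKM + 1) scale, was -1.28 (SE 0.29) and did not pass over 12 livers (limma adjusted p = 0.064; exact two-sided permutation p = 0.00758 for this gene alone, with 0.00253 the smallest that 792 arrangements allow). In the 10-liver fit it was -1.72 (SE 0.14, limma adjusted p = 5.65e-05). Leaving out only the library labelled Srebf1 KO replicate 1 gave -1.65 (limma adjusted p = 0.000197), and leaving out only Tbx3 KO replicate 7 gave -1.36 (limma adjusted p = 0.0474). The library labelled Srebf1 KO replicate 1 was left out for its Srebf1 level. Fits without it are therefore no separate test of Srebf1. The Srebf1 level of the library labelled Srebf1 KO replicate 1 thus lay apart from that of the other 4 Srebf1 KO livers. An mRNA level alone does not settle whether the label is right. Each direction below that draws on this library does so with that reservation. The fit over all 34 livers also called Srebf1 (limma adjusted p = 0.00375).

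Tbx3 mRNA did not differ detectably between the groups. Tbx3 (GRCm38 chromosome 5, 119670669 to 119684724, plus strand, protein-coding) stood at 77.26, 69.82, 124.1, 105.8 and 123.7 FPKM in Srebf1 KO libraries. In Tbx3 KO livers it ranged over 80.05 to 248.5 FPKM with a median of 103.5, and the groups overlapped. The log2 difference was -0.36 (SE 0.26, limma adjusted p = 0.771; exact two-sided permutation p = 0.26). An edited gene can still be transcribed, so this level does not check the Tbx3 label.

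**Figure D1:**
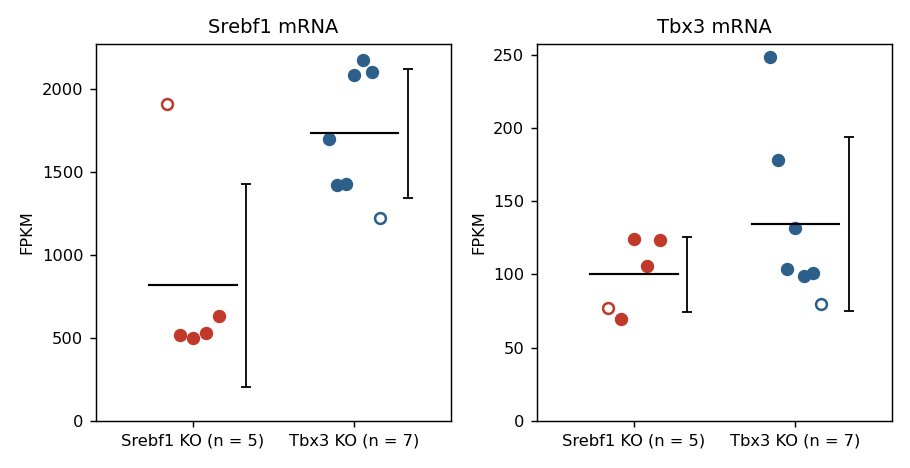
FPKM of Srebf1 (left panel) and Tbx3 (right panel) in each liver, with Srebf1 KO (red, n = 5) left of Tbx3 KO (blue, n = 7). Horizontal lines are group means, bars beside them are 1 SD, and open circles mark the library labelled Srebf1 KO replicate 1 and Tbx3 KO replicate 7. The open red circle lies at 1908 FPKM of Srebf1, among the Tbx3 KO livers, while the other 4 Srebf1 KO livers lie between 498.8 and 631.7 FPKM.

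Across the 12 livers 140 of the 16977 genes passed the test (0.825%), 91 of them higher in Srebf1 KO (0.536%) and 49 lower (0.289%), by limma at an adjusted p under 0.05. Of these, 53 were at least 2-fold higher and 32 at least 2-fold lower on the log2(FPKM + 1) scale. In 119 of the 140 the groups did not overlap. The 140 were chosen by a test of the same separation, so this count is no further support for them. The share without overlap among all genes tested was not counted. The median log2 difference over all genes tested was 0.005, and the median SE was 0.231. In the 10-liver fit 236 genes passed (1.39%), 131 higher (0.772%) and 105 lower (0.618%). Both fits shared 122 genes, 76 higher and 46 lower. A further 18 passed only with 12 livers and 114 only with 10, and no gene called in either fit changed sign between them. Leaving out 1 liver at a time gave 84 to 215 calls, with 84 without Srebf1 KO replicate 5, 87 without Srebf1 KO replicate 3 and 215 without Tbx3 KO replicate 7. In the 10-liver fit, leaving out a further liver gave 120 to 289 calls, with 145, 120 and 137 without Srebf1 KO replicates 2, 3 and 4.

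**Figure D2:**
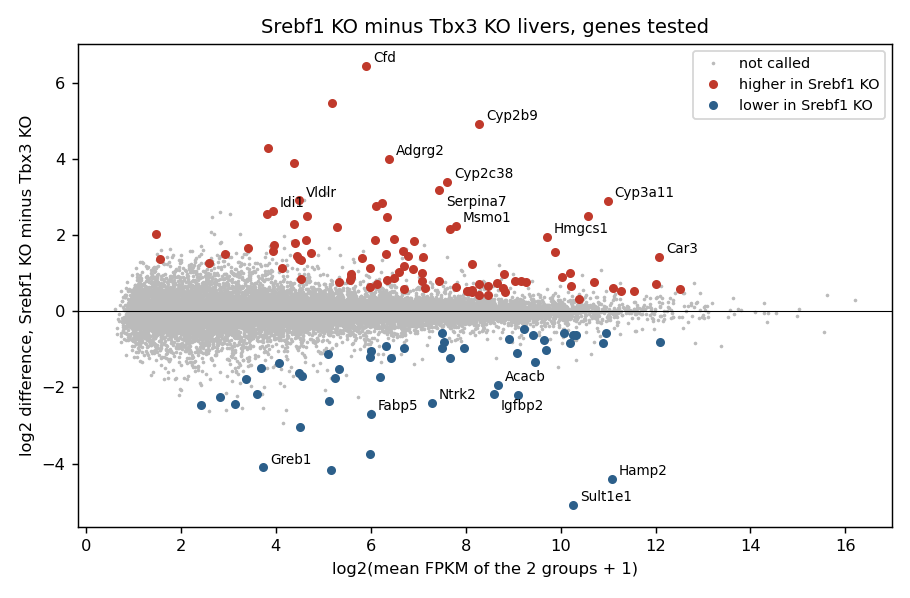
Log2 difference, Srebf1 KO minus Tbx3 KO, of each of the 16977 genes tested (vertical axis) against the log2 of its mean FPKM plus 1 (horizontal axis). Red points are the 91 genes called higher in Srebf1 KO, blue points the 49 called lower, and grey points were not called. Cfd at 6.44 and Sult1e1 at -5.08 mark the 2 ends among called genes.

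Genes of fatty acid synthesis and desaturation were lower in Srebf1 KO livers where they were called. Of 24 tested list members 4 fell and none rose (background 0.289% lower and 0.536% higher), with a median log2 difference of -0.35 beside 0.005 over all genes tested. In the 10-liver fit 7 fell and none rose (background 0.618% lower and 0.772% higher), with a median of -0.39. The 4 were Acacb, Fads1, Acly and Fads2. The level of the whole list, taken as log2(FPKM + 1) less each gene's 12-liver mean and averaged over members, was -0.32 to -0.09 in Srebf1 KO livers and -0.17 to 0.74 in Tbx3 KO livers, so the groups overlapped.

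Acacb, the acetyl-CoA carboxylase of the mitochondrial surface whose product malonyl-CoA restrains fatty acid oxidation, fell most among the 4. It stood at 271.2, 138.5, 122.6, 158.9 and 156.3 FPKM in Srebf1 KO livers, against 450.3 to 944.9 FPKM (median 595.7) in Tbx3 KO livers. Every Srebf1 KO liver lay below every Tbx3 KO liver, and the library labelled Srebf1 KO replicate 1 was the highest of its group. The means were 169.5 ± 58.7 and 646.2 ± 180 FPKM (SD, n = 5 and 7), a log2 difference of -1.94 (SE 0.21, limma adjusted p = 0.000464). Control livers lay at 410.1 to 933.1 FPKM, above all Srebf1 KO livers.

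Fads1, the delta-5 desaturase of polyunsaturated fatty acids, had 679.8, 590.6, 397.2, 513.8 and 579.5 FPKM in Srebf1 KO livers, against 894.7 to 1231 FPKM (median 1150) in Tbx3 KO livers. The groups did not overlap (log2 difference -1.01, SE 0.13, limma adjusted p = 0.00107). Its neighbour Fads2, the delta-6 desaturase, had 1186, 902.8, 648.8, 725.1 and 798.6 FPKM in Srebf1 KO livers, against 1075 to 2023 FPKM (median 1418) in Tbx3 KO livers. Here the groups overlapped through the library labelled Srebf1 KO replicate 1 (log2 difference -0.82, SE 0.17, limma adjusted p = 0.0373), and they did not in the 10-liver fit (-0.87, limma adjusted p = 0.00809).

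Acly, ATP citrate lyase, which supplies cytosolic acetyl-CoA, had 256.7, 355.6, 327.7, 402.7 and 331.1 FPKM in Srebf1 KO livers, against 427.9 to 1186 FPKM (median 695.4) in Tbx3 KO livers. Its groups did not overlap (log2 difference -1.09, SE 0.20, limma adjusted p = 0.0167), but the fit over all 34 livers did not call it (limma adjusted p = 0.0844). The calls on Acacb and Fads1 held when any 1 liver was left out. That on Acly ended without Srebf1 KO replicate 3 or 5 (limma adjusted p = 0.0543 and 0.0529), and that on Fads2 without any of 8 livers, Srebf1 KO replicates 2 to 5 and Tbx3 KO replicates 1, 2, 4 and 6 (limma adjusted p up to 0.117), and under quantile normalization (0.0504). The count for the list was then 2 without either Srebf1 KO replicate 3 or 5.

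The 10-liver fit added Elovl2, an elongase of polyunsaturated fatty acids, Scd1, the stearoyl-CoA desaturase, and Acss2, which makes acetyl-CoA from acetate. Elovl2 was lower by a log2 difference of -0.94 (limma adjusted p = 0.00586), Scd1 by -0.69 (limma adjusted p = 0.00884) and Acss2 by -0.95 (limma adjusted p = 0.0128). Fasn, the fatty acid synthase, singled out after its values were seen, stood at 337.7, 400.1, 395.7, 405.4 and 395.8 FPKM in Srebf1 KO livers, against 398.2 to 1352 FPKM (median 683) in Tbx3 KO livers. It did not pass in either fit (log2 difference -0.85, limma adjusted p = 0.0971 over 12 livers and 0.145 over 10).

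Where called, genes of cholesterol synthesis were higher in Srebf1 KO livers, and the library labelled Srebf1 KO replicate 1 did not share the high list level of the other 4. Of 21 tested list members 4 rose and none fell (background 0.536% higher), with a median log2 difference of 0.77 beside 0.005 over all genes tested. In the 10-liver fit 11 rose and none fell (background 0.772% higher and 0.618% lower). The 10-liver median was 0.72 beside 0.031 over all genes tested. The list level was -0.46 in the library labelled Srebf1 KO replicate 1 and 0.27 to 1.08 in the other 4 Srebf1 KO livers, against -0.79 to 0.01 in Tbx3 KO livers. Control livers lay at -0.81 to -0.07.

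The promoters of 2 of the 4 called genes are shown because they carry the core of the sterol regulatory element (TCACNCC), the motif bound by SREBP factors. They are RefSeq windows of GRCm38.p6 from 250 bases before to 50 bases after the start of the gene, read 5′ to 3′ on the gene's strand, with the core in capitals. Hmgcs1 (chr13:119690101-119690400, plus strand) holds the core at -220 and -137, counted from the start site to its first base, and Msmo1 (chr8:64733529-64733828, minus strand) holds it at -177.
Hmgcs1: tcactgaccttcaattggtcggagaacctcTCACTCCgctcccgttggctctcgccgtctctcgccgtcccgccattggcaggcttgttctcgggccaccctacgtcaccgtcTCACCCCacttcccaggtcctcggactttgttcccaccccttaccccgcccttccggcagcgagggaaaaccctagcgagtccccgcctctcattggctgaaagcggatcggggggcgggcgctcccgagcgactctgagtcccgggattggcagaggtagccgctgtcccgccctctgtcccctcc
Msmo1: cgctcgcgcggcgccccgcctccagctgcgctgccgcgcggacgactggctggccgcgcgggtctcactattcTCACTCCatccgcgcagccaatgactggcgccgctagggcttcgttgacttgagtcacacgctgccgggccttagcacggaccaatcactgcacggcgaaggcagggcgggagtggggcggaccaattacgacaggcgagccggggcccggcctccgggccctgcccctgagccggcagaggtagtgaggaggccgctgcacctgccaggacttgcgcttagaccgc
Searched on both strands, the core was found in 15.6% of the 32851 promoters of the table, in 3 of the 16 cholesterol synthesis members with a promoter there and in 3 of the 20 fatty acid synthesis members. The T-box core GGTGTG was found in 19% of all promoters, and in 3 of 16 and 3 of 20 of these lists, and the E-box CACGTG in 7.15%, and in 3 of 16 and 3 of 20. Of the 117 genes covered by the naming rule 90 matched the table. These are matches of letters only.

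Msmo1, a sterol C4-methyl oxidase, had 126.2, 582.9, 271.1, 409.5 and 465.1 FPKM in Srebf1 KO livers, against 49.01 to 93.26 FPKM (median 74.15) in Tbx3 KO livers. The groups did not overlap, with the library labelled Srebf1 KO replicate 1 the lowest of its group. The means were 371 ± 177 and 70.27 ± 16.6 FPKM (SD, n = 5 and 7), a log2 difference of 2.24 (SE 0.31, limma adjusted p = 0.00296). In control livers Msmo1 lay at 67.2 to 93.96 FPKM.

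Hmgcs1, the cytosolic HMG-CoA synthase at the head of the mevalonate pathway, had 403.5, 2080, 858.8, 1736 and 1732 FPKM in Srebf1 KO livers, against 202.4 to 397.8 FPKM (median 330.4) in Tbx3 KO livers. The library labelled Srebf1 KO replicate 1 lay just above the highest Tbx3 KO liver. The log2 difference was 1.95 (SE 0.35, limma adjusted p = 0.0147) and 2.24 in the 10-liver fit (SE 0.24, limma adjusted p = 0.000374).

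Idi1, the isopentenyl diphosphate isomerase, had 6.015, 42.82, 23.07, 26.69 and 30.53 FPKM in Srebf1 KO livers, against 1.32 to 4.172 FPKM (median 2.795) in Tbx3 KO livers. These did not overlap, and Idi1 had the largest log2 difference of the 4, 2.63 (SE 0.39, limma adjusted p = 0.00492). Hsd17b7, a sterol 3-ketoreductase, had 113, 248.3, 156.5, 263.8 and 214 FPKM in Srebf1 KO livers, against 37.53 to 103.3 FPKM (median 77.54) in Tbx3 KO livers. Again the lowest Srebf1 KO liver, the library labelled replicate 1, lay just above the highest Tbx3 KO liver (log2 difference 1.43, SE 0.26, limma adjusted p = 0.0151).

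Cyp51, the lanosterol demethylase, had 38.24 FPKM in the library labelled Srebf1 KO replicate 1 and 114.9 to 254.1 FPKM in the other Srebf1 KO livers, against 35.12 to 55.64 FPKM in Tbx3 KO livers. Over 12 livers it did not pass (log2 difference 1.62, limma adjusted p = 0.064), and over 10 it did (2.08, limma adjusted p = 0.000373). Mvk, mevalonate kinase (1.92, limma adjusted p = 0.0128), and Fdft1, squalene synthase (1.58, limma adjusted p = 0.000109), were among the other genes that passed over 10 livers. Sqle, Tm7sf2 and Nsdhl also passed there. Without the library labelled Srebf1 KO replicate 1 alone, 10 members were called higher, and without Srebf1 KO replicate 4 or 5 alone 2 were.

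The calls on Hmgcs1 ended without Srebf1 KO replicate 4 or 5 (limma adjusted p = 0.0531 and 0.0554), and that on Hsd17b7 without Srebf1 KO replicate 2, 4 or 5 (limma adjusted p = 0.0543, 0.0538 and 0.0553). Among 15 tested genes of SREBP regulation and sterol uptake none passed over 12 livers. Over 10 livers Srebf2 (log2 difference 0.70, limma adjusted p = 0.0244) and Stard4, a cytosolic sterol carrier (0.67, limma adjusted p = 0.0189), were higher in Srebf1 KO.

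**Figure D3:**
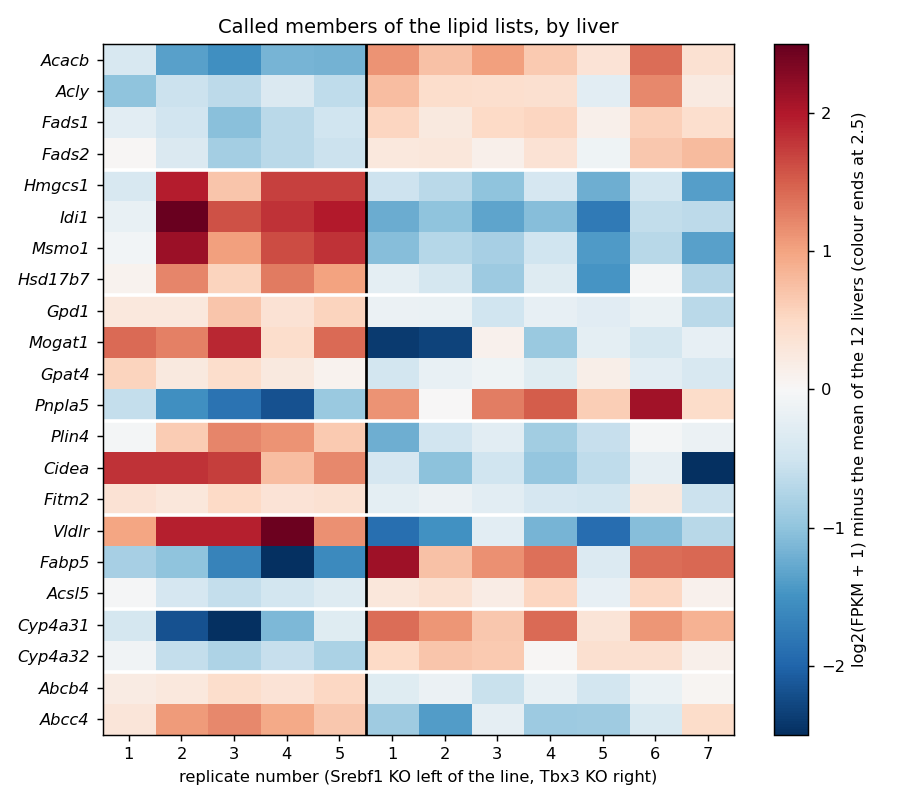
Colour gives log2(FPKM + 1) of each called lipid gene (rows) in each liver (columns, Srebf1 KO replicates 1 to 5 left of the black line and Tbx3 KO replicates 1 to 7 right of it), minus the gene's mean over the 12 livers. White lines part, from top to bottom, fatty acid synthesis, cholesterol synthesis, triglyceride synthesis, lipid droplet proteins, fatty acid uptake, oxidation and bile acid transport. Hmgcs1, Idi1, Msmo1 and Hsd17b7 are red in Srebf1 KO replicates 2 to 5 and pale in replicate 1, and the 4 genes above them are blue in nearly all Srebf1 KO livers.

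Called members of the triglyceride synthesis list moved in both directions, but the 1 that fell, Pnpla5, is a lipase. Of 15 tested members 3 rose and 1 fell in Srebf1 KO livers (background 0.536% and 0.289%), with a median log2 difference of 0.02. Gpd1, the cytosolic glycerol-3-phosphate dehydrogenase that supplies the glycerol backbone, had 443.1, 444.3, 601.5, 477.2 and 542.9 FPKM in Srebf1 KO livers, against 230.2 to 334.6 FPKM (median 318.9) in Tbx3 KO livers. The groups did not overlap (log2 difference 0.74, SE 0.12, limma adjusted p = 0.00653).

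Mogat1, a monoacylglycerol acyltransferase, had 63.84, 57.02, 89.05, 31.98 and 64.38 FPKM in Srebf1 KO livers, against 3.638 to 25.24 FPKM (median 17.06) in Tbx3 KO livers. Its groups did not overlap either (log2 difference 2.20, SE 0.44, limma adjusted p = 0.0333). Control livers spanned 28.17 to 95.26 FPKM of Mogat1, above all Tbx3 KO livers. Gpat4, a glycerol-3-phosphate acyltransferase, averaged 313.7 ± 39.4 FPKM in Srebf1 KO livers and 217.2 ± 31.7 FPKM in Tbx3 KO livers (SD, n = 5 and 7), with overlap (log2 difference 0.53, SE 0.11, limma adjusted p = 0.0462).

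Pnpla5, a lipase of the patatin family, fell: it had 3.422, 1.307, 0.8534, 0.4728 and 2.516 FPKM in Srebf1 KO livers, against 5.773 to 27.78 FPKM (median 13.65) in Tbx3 KO livers. The groups did not overlap (log2 difference -2.43, SE 0.38, limma adjusted p = 0.00628). The calls on Gpd1 and Pnpla5 held without any 1 liver. That on Mogat1 ended without any of Srebf1 KO replicates 1, 2, 3 and 5 and Tbx3 KO replicate 4 (limma adjusted p up to 0.112). The call on Gpat4 ended without any liver but Tbx3 KO replicate 5 (limma adjusted p up to 0.131) and in the 10-liver fit (0.114). It also ended in the fit over all 34 livers (0.114), with a pseudocount of 0.1 (0.0504), and under quantile normalization (0.063) and median scaling (0.178).

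Lipid droplet proteins were higher in Srebf1 KO livers where called, with 3 of 21 tested members up and none down (background 0.536% and 0.289%) and a median log2 difference of 0.22. Plin4, a droplet coat protein, had 219.8, 354.3, 530.9, 497.5 and 358.9 FPKM in Srebf1 KO livers, against 96.93 to 219.3 FPKM (median 163.2) in Tbx3 KO livers. The lowest Srebf1 KO liver, the library labelled replicate 1, lay just above the highest Tbx3 KO liver (log2 difference 1.24, SE 0.23, limma adjusted p = 0.0206).

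Cidea, which fuses droplets and enlarges them, had 50.79, 50.42, 47.82, 24.05 and 33.07 FPKM in Srebf1 KO livers, against 0.2746 to 11.56 FPKM (median 8.534) in Tbx3 KO livers. The lowest value was that of Tbx3 KO replicate 7, and the groups did not overlap (log2 difference 2.51, SE 0.48, limma adjusted p = 0.0221). Fitm2, a protein of the endoplasmic reticulum that helps droplets form, averaged 75.36 ± 4.22 FPKM in Srebf1 KO livers and 49.06 ± 9.78 FPKM in Tbx3 KO livers (SD, n = 5 and 7; log2 difference 0.63, SE 0.13, limma adjusted p = 0.0448).

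No call of this list held without every single liver: that on Plin4 ended without any of Srebf1 KO replicates 2 to 5 (limma adjusted p up to 0.0746), that on Cidea without any of Srebf1 KO replicates 1, 2, 3 and 5 (up to 0.0755), and that on Fitm2 without any liver but Tbx3 KO replicates 6 and 7 (up to 0.128). Fitm2 also missed in the 10-liver fit (limma adjusted p = 0.0893), in the fit over all 34 livers (0.189), and under median scaling (0.0789) and quantile normalization (0.063), and Cidea with a pseudocount of 0.1 (0.0936) and in the fit over all 34 livers (0.14).

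Fatty acid uptake and binding genes split, with 1 of 17 tested members higher and 2 lower in Srebf1 KO livers (background 0.536% and 0.289%). Vldlr, the receptor for very low density lipoprotein, had 21.55, 42.8, 43.07, 61.56 and 24.3 FPKM in Srebf1 KO livers, against 2.047 to 8.529 FPKM (median 4.071) in Tbx3 KO livers. The lowest Srebf1 KO value was above the highest Tbx3 KO value (log2 difference 2.91, SE 0.34, limma adjusted p = 0.000589). Control livers had 34.4 to 48.75 FPKM of Vldlr, within the range of Srebf1 KO and above all Tbx3 KO livers.

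Fabp5, a fatty acid binding protein that macrophages and epithelia also express, had 25.02, 21.77, 13.42, 5.884 and 14.21 FPKM in Srebf1 KO livers, against 35.24 to 199.8 FPKM (median 117.8) in Tbx3 KO livers. The groups did not overlap (log2 difference -2.69, SE 0.39, limma adjusted p = 0.00443), and the 10-liver value was -2.82 (limma adjusted p = 0.00555). Fabp5 is also 1 of 17 lipid-associated macrophage markers, whose sum was 1432 to 1978 FPKM in Srebf1 KO livers and 1133 to 2440 FPKM in Tbx3 KO replicates 1 to 6, with 4886 FPKM in Tbx3 KO replicate 7. Their part in the Fabp5 difference was not tested, and no other member of that list was called over 12 livers.

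Acsl5, an acyl-CoA synthetase, averaged 957 ± 150 FPKM in Srebf1 KO livers and 1479 ± 253 FPKM in Tbx3 KO livers (SD, n = 5 and 7). Its log2 difference was -0.62 (SE 0.13, limma adjusted p = 0.0471). The call ended without any 1 of 9 livers, all but the library labelled Srebf1 KO replicate 1 and Tbx3 KO replicates 5 and 7 (limma adjusted p up to 0.142). It also ended under median scaling (limma adjusted p = 0.0683) and with a pseudocount of 0.1 (0.0508). Lpl, the lipoprotein lipase, had 37.58 to 47.11 FPKM in Srebf1 KO livers, against 16.65 to 33.55 FPKM in Tbx3 KO replicates 1 to 6 and 207.4 FPKM in replicate 7. It was called higher in Srebf1 KO in the 10-liver fit (log2 difference 0.89, limma adjusted p = 0.0382) and without Tbx3 KO replicate 7 alone (limma adjusted p = 0.0236), and not over 12 livers (0.41, limma adjusted p = 0.899).

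Of 33 genes of fatty acid oxidation and ketogenesis 2 fell and none rose in Srebf1 KO livers (background 0.289% and 0.536%), both omega-hydroxylases of the Cyp4a family. Cyp4a32 had 229.8, 160.8, 143.2, 164.1 and 140.2 FPKM in Srebf1 KO livers, against 249.8 to 398.3 FPKM (median 324.2) in Tbx3 KO livers. Cyp4a31 had 19.5, 5.117, 2.916, 11.8 and 21.44 FPKM in Srebf1 KO livers, against 33.63 to 72.69 FPKM (median 58.54) in Tbx3 KO livers. For both the groups did not overlap, with log2 differences of -0.97 (SE 0.15, limma adjusted p = 0.00519) for Cyp4a32 and -2.36 (SE 0.39, limma adjusted p = 0.00912) for Cyp4a31. The fit over all 34 livers did not call Cyp4a32 (limma adjusted p = 0.0505). The 10-liver fit added Cyp4a10 (-1.04, limma adjusted p = 0.00172), Cyp4a14 (-1.17, limma adjusted p = 0.0194) and Ppargc1a, a coactivator of oxidative genes (-0.72, limma adjusted p = 0.0159), as lower. Near-identical Cyp4a genes can share reads, so the split of signal between Cyp4a31 and Cyp4a32 is uncertain.

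Transporters made up the 2 called genes among 24 tested for bile acid synthesis and transport, both higher in Srebf1 KO (background 0.536%). Abcb4, which carries phosphatidylcholine into bile, had 2383, 2495, 2806, 2651 and 2966 FPKM in Srebf1 KO livers, against 1420 to 2163 FPKM (median 1834) in Tbx3 KO livers. The groups did not overlap (log2 difference 0.60, SE 0.11, limma adjusted p = 0.0143). Abcc4, an efflux pump of the basolateral membrane, had 20.19, 34.95, 38.41, 31.9 and 26.3 FPKM in Srebf1 KO livers, against 5.532 to 22.58 FPKM (median 8.269) in Tbx3 KO livers. The highest of these Tbx3 KO values was that of replicate 7, and it was the only one within the Srebf1 KO range (log2 difference 1.44, SE 0.29, limma adjusted p = 0.0317).

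The call on Abcb4 ended without Srebf1 KO replicate 3 or 5 (limma adjusted p = 0.0536 and 0.0562), and that on Abcc4 without any of Srebf1 KO replicates 2 to 5 and Tbx3 KO replicates 1, 2, 4 and 5 (up to 0.106). In the 10-liver fit 3 further genes were lower in Srebf1 KO (background 0.618%). They included the uptake transporter Slc10a1 (log2 difference -0.76, limma adjusted p = 0.00304) and the bile salt export pump Abcb11 (-0.75, limma adjusted p = 0.0051). The other was Cyp27a1, the sterol 27-hydroxylase (-0.41, limma adjusted p = 0.0294). Among 30 genes of apolipoproteins and lipoprotein assembly none was called by limma in either fit. Over 12 livers 5 of them were higher and 2 lower at an unadjusted limma p under 0.05. Of all 16977 genes tested, 1593 had an unadjusted p under 0.05 over 12 livers, both directions together.

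Among genes of xenobiotic metabolism the calls over 12 livers were upward. Of 35 tested xenobiotic metabolism genes 3 rose and none fell (background 0.536% and 0.289%), with a median log2 difference of 0.23. Cyp3a11, the main hepatic Cyp3a enzyme of the mouse, had 2300, 2493, 4228, 4359 and 3821 FPKM in Srebf1 KO livers, against 199.7 to 2051 FPKM (median 299.5) in Tbx3 KO livers. Only Tbx3 KO replicate 7, at 2051 FPKM, came near the Srebf1 KO range; the other Tbx3 KO livers had at most 713.9 FPKM. The log2 difference was 2.90 over 12 livers (SE 0.48, limma adjusted p = 0.00825) and 3.40 over 10 (SE 0.33, limma adjusted p = 0.000213). Control livers had 2839 to 4470 FPKM of Cyp3a11, above all Tbx3 KO livers. Cyp2c70, also of this list, was lower over 10 livers (log2 difference -0.85, limma adjusted p = 0.0211).

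Cyp2a5, the coumarin hydroxylase, had 1256, 1246, 1840, 1336 and 1292 FPKM in Srebf1 KO livers, against 299.2 to 757.7 FPKM (median 430.1) in Tbx3 KO livers (log2 difference 1.55, SE 0.24, limma adjusted p = 0.00568). These groups did not overlap. Aldh3a2, the fatty aldehyde dehydrogenase, averaged 5073 ± 501 FPKM in Srebf1 KO livers and 3149 ± 783 FPKM in Tbx3 KO livers (SD, n = 5 and 7). Its log2 difference was 0.72 (SE 0.16, limma adjusted p = 0.0476). The call ended without any liver but Tbx3 KO replicates 6 and 7 (limma adjusted p up to 0.136) and in the 10-liver fit (0.0551). It also ended under quantile normalization (limma adjusted p = 0.14) and with a pseudocount of 0.1 (0.0508).

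Cyp2c38, a Cyp2c enzyme, had 402.4, 381.9, 326.5, 264 and 387.8 FPKM in Srebf1 KO livers, against 14.94 to 45.67 FPKM (median 41.27) in Tbx3 KO livers. The means were 352.5 ± 57.2 and 34.93 ± 12.9 FPKM (SD, n = 5 and 7), with a log2 difference of 3.39 (SE 0.27, limma adjusted p = 5.04e-05). Control livers had 220.5 to 539.4 FPKM, so all 5 Srebf1 KO livers were within the control range and all 7 Tbx3 KO livers below it.

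Genes that are higher in female than in male mouse liver did not move one way. The sex of the mice is not reported here. Of 21 tested members 4 rose and 3 fell in Srebf1 KO livers (background 0.536% and 0.289%), and of 28 male-biased genes none rose and 1 fell, Cyp2f2. Over 10 livers 6 female-biased genes rose and 4 fell, and 1 male-biased gene rose and 3 fell (background 0.772% higher and 0.618% lower). Cyp2b9 had 143.5, 635.8, 788, 883 and 475.5 FPKM in Srebf1 KO livers, against 2.582 to 97.2 FPKM (median 9.812) in Tbx3 KO livers (log2 difference 4.92, SE 0.82, limma adjusted p = 0.00912). Its neighbour in the family Cyp2b13 had 6.051, 51.99, 134.4, 142 and 21.85 FPKM in Srebf1 KO livers and was listed at 0 in all 7 Tbx3 KO livers (limma adjusted p = 0.000464). With 0 in every Tbx3 KO liver, Cyp2b13 could enter the test only with all 5 Srebf1 KO livers at 1 FPKM or more. A gap between its groups was thus set by the filter. For both Cyp2b9 and Cyp2b13, the library labelled Srebf1 KO replicate 1 was the lowest of its group. Cyp2a22 had 107.9, 193.3, 94.58, 145.2 and 164.8 FPKM in Srebf1 KO livers, against 28.49 to 46.61 FPKM (median 34.91) in Tbx3 KO livers (log2 difference 1.89, SE 0.19, limma adjusted p = 0.000204).

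Slc22a27, an organic anion transporter that is also on the female-biased list, had 16.69, 50.32, 31.27, 38.8 and 49.2 FPKM in Srebf1 KO livers, against 0 to 8.449 FPKM (median 1.516) in Tbx3 KO livers (log2 difference 3.90, SE 0.57, limma adjusted p = 0.00465). Slc22a29, of the same family, had 13.56, 34.99, 22.06, 24.72 and 35.58 FPKM in Srebf1 KO livers, against 0 to 2.372 FPKM (median 0) in Tbx3 KO livers (log2 difference 4.27, SE 0.36, limma adjusted p = 5.33e-05). Neither pair of groups overlapped, and controls lay at 31.64 to 64.46 FPKM of Slc22a27 and 10.01 to 43.23 FPKM of Slc22a29. Slc22a29, with a Tbx3 KO median of 0, entered the test through its Srebf1 KO livers, so the filter itself favoured a gap between its groups. Reads can be shared among near-identical Cyp2a, Cyp2b, Cyp2c and Slc22a genes, so the split of signal within each family is uncertain.

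The female-biased genes that fell were Sult1e1, Ntrk2 and Cyp17a1. Sult1e1, the estrogen sulfotransferase, had 114.8, 76.91, 90.59, 15.18 and 54.47 FPKM in Srebf1 KO livers, against 349.3 to 3703 FPKM (median 2512) in Tbx3 KO livers. Tbx3 KO replicate 7 held the 349.3 and the other 6 held at least 2072 FPKM. The log2 difference was -5.08 (SE 0.57, limma adjusted p = 0.000464), and -5.74 over 10 livers (limma adjusted p = 1.74e-05). Control livers had 6.276 to 417.9 FPKM of Sult1e1.

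Ntrk2, a neurotrophin receptor, had 41.5, 92.34, 47.14, 33.9 and 40.44 FPKM in Srebf1 KO livers, against 206.2 to 293.1 FPKM (median 266.3) in Tbx3 KO livers (log2 difference -2.40, SE 0.20, limma adjusted p = 5.04e-05). The groups stood well apart, with controls at 54.21 to 121.6 FPKM. Cyp17a1, the steroid 17-alpha-hydroxylase, averaged 31.52 ± 9.93 FPKM in Srebf1 KO livers and 112.5 ± 49.5 FPKM in Tbx3 KO livers (SD, n = 5 and 7; log2 difference -1.73, limma adjusted p = 0.0206). It was named after its values were seen. Of 17 genes of the growth hormone axis only Igfbp2, an insulin-like growth factor binding protein, was called (background 0.289% lower). It had 321.2, 94.71, 98.86, 126.8 and 114.4 FPKM in Srebf1 KO livers, against 513.9 to 783.5 FPKM (median 561.6) in Tbx3 KO livers (log2 difference -2.18, SE 0.25, limma adjusted p = 0.000532), with the library labelled Srebf1 KO replicate 1 the highest of its group and controls at 70.52 to 201.8 FPKM.

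The gene with the largest log2 difference among those named was Cfd, complement factor D (adipsin), a serine protease of the alternative complement pathway that adipocytes secrete. It had 104.9, 148.5, 138.1, 145.2 and 51.8 FPKM in Srebf1 KO livers, while in Tbx3 KO livers 5 of 7 were listed at 0 and replicates 6 and 7 held 2.423 and 0.6907 FPKM. Control livers held 0 to 21.16 FPKM, so every Srebf1 KO liver, the library labelled replicate 1 included, was above every control. The log2 difference was 6.44 (SE 0.37, limma adjusted p = 1.16e-06). Cfd entered the test through its Srebf1 KO livers, so the filter itself favoured a gap between the groups. Car3, a carbonic anhydrase of adipocytes, muscle and hepatocytes, had 6137, 6953, 6183, 5560 and 6241 FPKM in Srebf1 KO livers, against 1129 to 3149 FPKM (median 2517) in Tbx3 KO livers (log2 difference 1.44, SE 0.21, limma adjusted p = 0.00508). Cfd and Car3 were the called members of the mesothelial cell and adipocyte list, whose sum was 10550 to 12260 FPKM in Srebf1 KO livers and 5370 to 9686 FPKM in Tbx3 KO livers. All 8 tested members of the list had positive log2 differences, and its level was 0.46 to 1.04 in Srebf1 KO livers and -0.88 to -0.22 in Tbx3 KO livers, without overlap. Level and sum both include Cfd and Car3, so they are no support apart from those calls. The adipocyte markers that were too low to test were Adipoq, which reached 0.2857 FPKM in Srebf1 KO livers and 0.8869 FPKM in Tbx3 KO livers, Lep (0.4935 and 0.6685 FPKM), Retn (1.386 and 4.33 FPKM) and Plin1 (1.131 and 0 FPKM). The part of such cells in the Cfd and Car3 differences was not tested.

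Other genes at the upper end came from varied functions. Adgrg2, an adhesion G protein-coupled receptor, had 70.72, 169.6, 230.4, 149.5 and 149 FPKM in Srebf1 KO livers, against 0 to 22.86 FPKM (median 13.15) in Tbx3 KO livers (log2 difference 4.00, SE 0.63, limma adjusted p = 0.00653). Serpina7, thyroxine-binding globulin, had 162.4, 339.9, 342.7, 333.8 and 334.2 FPKM in Srebf1 KO livers, against 12.62 to 112.4 FPKM (median 27.42) in Tbx3 KO livers (log2 difference 3.19, SE 0.44, limma adjusted p = 0.0026). In both cases the library labelled Srebf1 KO replicate 1 was the lowest of its group and still above every Tbx3 KO liver.

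Themis, known for its part in T cell development, had 115.5, 145.4, 117.2, 87.4 and 161.2 FPKM in Srebf1 KO livers, against 2.944 to 54.64 FPKM (median 17.52) in Tbx3 KO livers (log2 difference 2.85, SE 0.59, limma adjusted p = 0.038). Of the T and NK cell markers 15 were tested and none called, and their sum was 98.7 to 145.7 FPKM in Srebf1 KO livers and 98.47 to 232.2 FPKM in Tbx3 KO livers, highest in replicate 7; their part in the Themis difference was not tested. Rcan2, a regulator of calcineurin, had 120.8, 140.9, 117.3, 98.11 and 99.5 FPKM in Srebf1 KO livers, against 2.691 to 53.99 FPKM (median 18.74) in Tbx3 KO livers (log2 difference 2.76, SE 0.50, limma adjusted p = 0.0167). Neither gene's groups overlapped, and controls lay at 61.94 to 154.2 FPKM of Themis and 107.2 to 186.9 FPKM of Rcan2.

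Of the 12 genes at the upper end, 10 stayed called without any 1 liver. The call on Themis ended without any of the 5 Srebf1 KO livers or Tbx3 KO replicates 1, 2 and 3 (limma adjusted p up to 0.108), and that on Rcan2 without Srebf1 KO replicate 2 or 3 (0.0554 and 0.0552). A pseudocount of 0.1 ended the calls on Adgrg2 (limma adjusted p = 0.0758) and Themis (0.0508).

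At the lower end stood genes of iron, growth and immunity besides those of lipid metabolism. Hamp2, a paralog of the iron hormone hepcidin, had 318.1, 197.9, 106.1, 143.1 and 66.48 FPKM in Srebf1 KO livers, against 390.6 to 8121 FPKM (median 3451) in Tbx3 KO livers. Tbx3 KO replicate 7 again held the lowest value of its group, and the other 6 held at least 1950 FPKM. The log2 difference was -4.39 (SE 0.63, limma adjusted p = 0.00419), and -5.17 over 10 livers (limma adjusted p = 2.58e-05). Hamp2 was the only gene called over 12 livers among 27 acute phase genes (background 0.289% lower), and the 10-liver fit also called Hp, haptoglobin, as higher (log2 difference 0.71, limma adjusted p = 0.0065). Hamp itself, singled out after its values were seen, averaged 1289 ± 667 FPKM in Srebf1 KO livers and 2353 ± 1510 FPKM in Tbx3 KO livers (SD, n = 5 and 7) and did not pass (log2 difference -0.64, limma adjusted p = 0.817). Hamp and Hamp2 are close paralogs whose reads may not be fully separated.

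Greb1, an estrogen-responsive cofactor of the estrogen receptor, was listed at 0 in 4 Srebf1 KO livers and at 1.881 FPKM in replicate 4, against 6.946 to 40.3 FPKM (median 26.11) in Tbx3 KO livers (log2 difference -4.09, SE 0.47, limma adjusted p = 0.000532). Greb1 entered the test through the Tbx3 KO livers, where it was high. Meg3, an imprinted long noncoding RNA, had 1.38, 1.01, 1.476, 0.6099 and 1.488 FPKM in Srebf1 KO livers, against 3.928 to 21.24 FPKM (median 9.691) in Tbx3 KO livers (log2 difference -2.25, SE 0.39, limma adjusted p = 0.0119). It was the only called gene of 17 fetal and imprinted genes (background 0.289% lower). For both the groups did not overlap, and controls lay at 0 to 5.102 FPKM of Greb1 and 0.4144 to 2.977 FPKM of Meg3.

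H2-Q1, a nonclassical MHC class I gene, had 259.5, 121.4, 155.5, 218.9 and 193.3 FPKM in Srebf1 KO livers, against 429.1 to 1309 FPKM (median 973.9) in Tbx3 KO livers (log2 difference -2.19, SE 0.27, limma adjusted p = 0.00107). MHC class I genes share much sequence, so reads of H2-Q1 may come in part from relatives. Chrna4, a subunit of the nicotinic acetylcholine receptor, had 2.06, 5.129, 1.635, 3.992 and 3.107 FPKM in Srebf1 KO livers, against 7.243 to 36.8 FPKM (median 17.25) in Tbx3 KO livers (log2 difference -2.18, SE 0.37, limma adjusted p = 0.0104). In both genes the groups stood apart. All 12 genes at the lower end, Sult1e1, Hamp2, Greb1, Fabp5, Pnpla5, Ntrk2, Cyp4a31, Meg3, H2-Q1, Igfbp2, Chrna4 and Acacb, stayed called when any 1 liver was left out.

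Over 12 livers the called periportal genes were lower and the called pericentral genes higher in Srebf1 KO livers; the difference between the 2 lists was not tested. Of 26 tested periportal genes 4 fell and none rose in Srebf1 KO livers (background 0.289% and 0.536%), with a median log2 difference of -0.37 beside 0.005 over all genes tested. Of these 4, Cps1, Arg1 and Ass1 act in the urea cycle. Cps1, carbamoyl phosphate synthetase, had 5035, 3279, 2707, 2514 and 2668 FPKM in Srebf1 KO livers, against 5073 to 6021 FPKM (median 5223) in Tbx3 KO livers (log2 difference -0.80, SE 0.15, limma adjusted p = 0.0188). The library labelled Srebf1 KO replicate 1 lay just under the Tbx3 KO range. Control livers had 1916 to 3572 FPKM of Cps1, under all Tbx3 KO livers.

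Arg1, arginase, averaged 1602 ± 182 FPKM in Srebf1 KO livers and 2378 ± 220 FPKM in Tbx3 KO livers (SD, n = 5 and 7; log2 difference -0.57, SE 0.09, limma adjusted p = 0.00767), without overlap. Ass1, argininosuccinate synthase, averaged 1360 ± 256 FPKM in Srebf1 KO livers and 2470 ± 612 FPKM in Tbx3 KO livers (log2 difference -0.84, SE 0.16, limma adjusted p = 0.0232), with overlap through the library labelled Srebf1 KO replicate 1. Cyp2f2, a periportal P450 that is also on the male-biased list, averaged 598.3 ± 88.4 FPKM in Srebf1 KO livers and 1014 ± 177 FPKM in Tbx3 KO livers (log2 difference -0.75, SE 0.13, limma adjusted p = 0.0104). The 10-liver fit added Gls2, a glutaminase (-0.87, limma adjusted p = 0.00754), and Uroc1, of histidine breakdown (-0.44, limma adjusted p = 0.0316).

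Median scaling ended the calls on Cps1, Ass1 and Arg1 (limma adjusted p = 0.0617, 0.0778 and 0.0584). The call on Cps1 also ended without Srebf1 KO replicate 3, 4 or 5 (0.0713, 0.0632 and 0.0698) and that on Ass1 without Srebf1 KO replicates 2 to 5 or Tbx3 KO replicate 2 (up to 0.0818), which left 2 of the list called without Srebf1 KO replicate 3, 4 or 5.

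Of 31 pericentral genes 2 rose and none fell in Srebf1 KO livers (background 0.536% and 0.289%), with a median log2 difference of 0.19. Besides Cyp2a5 these included Slc13a3, a dicarboxylate transporter, with 27.29, 29.82, 38.65, 27.2 and 33.91 FPKM in Srebf1 KO livers, against 8.076 to 26.67 FPKM (median 11) in Tbx3 KO livers (log2 difference 1.34, SE 0.25, limma adjusted p = 0.0206). Its highest Tbx3 KO value was that of replicate 7, and its call ended without Srebf1 KO replicate 2, 3 or 5 (limma adjusted p = 0.0575, 0.0755 and 0.07). The 10-liver fit called 3 of the list higher, with Gstm3 added, and 1 lower, Cyp27a1 (background 0.772% higher and 0.618% lower). Tbx3, itself a pericentral gene, was not called. Glul, glutamine synthetase and the classical marker of the innermost pericentral cells, singled out after its values were seen, averaged 661.2 ± 95.7 FPKM in Srebf1 KO livers and 511.4 ± 157 FPKM in Tbx3 KO livers (SD, n = 5 and 7) and did not pass (limma adjusted p = 0.607).

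**Figure D4:**
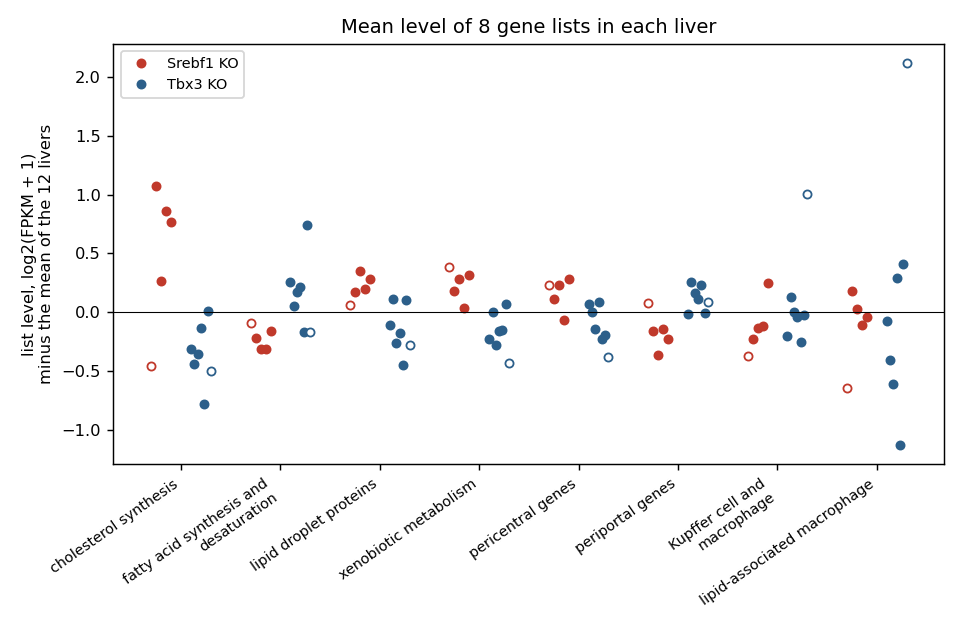
Mean level of 8 gene lists in each liver, as log2(FPKM + 1) less each gene's average in the 12 livers (vertical axis), with Srebf1 KO livers (red) left of Tbx3 KO livers (blue) for each list. Open circles mark the library labelled Srebf1 KO replicate 1 and Tbx3 KO replicate 7. For cholesterol synthesis the open red circle lies at -0.46 among the Tbx3 KO livers and the other 4 red circles at 0.27 to 1.08, and for lipid-associated macrophage markers the open blue circle lies at 2.12, above all others.

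The genes that passed only in the 10-liver fit included some in which Tbx3 KO replicate 7 lay far from its group. Cyp2a4, a steroid 15-alpha-hydroxylase close in sequence to Cyp2a5, had 7.593 FPKM in the library labelled Srebf1 KO replicate 1 and 16.94 to 41.35 FPKM in the other Srebf1 KO livers, against 0.8275 to 7.837 FPKM in Tbx3 KO replicates 1 to 6 and 40.63 FPKM in replicate 7. Its log2 difference was 2.65 over 10 livers (limma adjusted p = 0.0127) and 1.84 over 12 (limma adjusted p = 0.3). Gstm3, a glutathione S-transferase, had 82.27 to 179.2 FPKM in Srebf1 KO livers, against 19.57 to 56.99 FPKM in Tbx3 KO replicates 1 to 6 and 200 FPKM in replicate 7 (log2 difference 1.89 over 10 livers, limma adjusted p = 0.00864). Mthfd1l, a mitochondrial enzyme of one-carbon metabolism, had 11.48 to 52.83 FPKM in Srebf1 KO livers, against 4.456 to 18.01 FPKM in Tbx3 KO replicates 1 to 6 and 66.66 FPKM in replicate 7 (log2 difference 1.90 over 10 livers, limma adjusted p = 0.0264). The symbol Mir1938 was higher by 3.13 over 10 livers (limma adjusted p = 0.0147) and stood at 0 for the library labelled Srebf1 KO replicate 1 and for 6 of 7 Tbx3 KO livers.

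On the lower side, Susd4, a complement inhibitor, differed by -2.01 over 10 livers (limma adjusted p = 0.00304) and by -1.67 over 12 (limma adjusted p = 0.0524). Camk1d, a calcium- and calmodulin-dependent kinase, differed by -1.57 (limma adjusted p = 0.00178), Ces3b, a carboxylesterase, by -1.58 (limma adjusted p = 0.0448), the major urinary protein gene Mup21 by -1.45 (limma adjusted p = 0.0331) and Acpp, an acid phosphatase, by -1.34 (limma adjusted p = 0.00136), all over 10 livers. Acpp held 14.63 to 19.69 FPKM in Srebf1 KO livers, against 31.29 to 50.87 FPKM in Tbx3 KO replicates 1 to 6 and 3.29 FPKM in replicate 7. Mup and Ces3 genes have near-identical relatives, and their split of reads is uncertain.

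**Figure D5:**
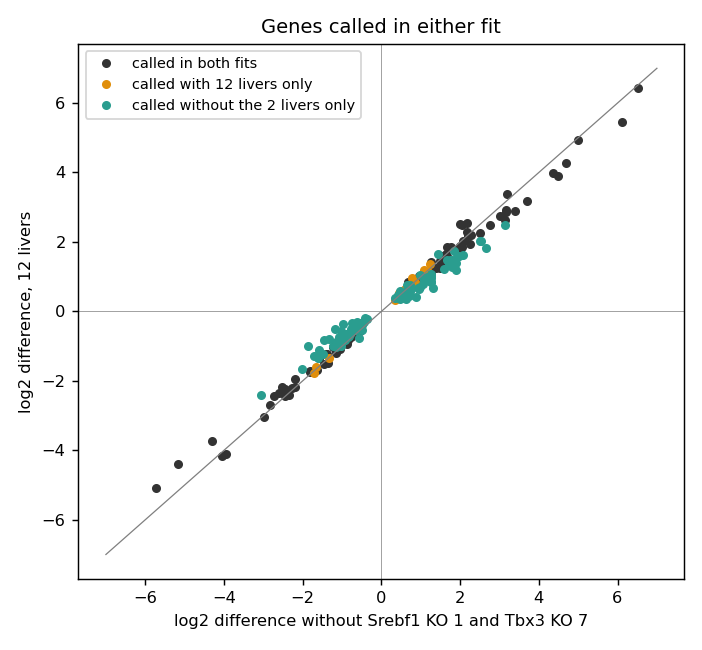
Log2 difference, Srebf1 KO minus Tbx3 KO, over 12 livers (vertical axis) against that in the 10-liver fit (horizontal axis), for the genes called in either. Black points are the 122 genes called in both, orange the 18 called over 12 livers only and green the 114 called over 10 livers only. All points lie at the lower left or the upper right, since no called gene changed sign.

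Several cell type lists held no called gene over 12 livers by limma. Among them were stellate cell and fibroblast, Kupffer cell and macrophage, endothelial cell and cholangiocyte markers. So were B cell and plasma cell, neutrophil, dendritic cell, erythroid cell, and pancreas and intestine markers. In these lists 0 to 2 members per direction had an unadjusted p under 0.05. Of all 16977 genes tested 1593 did, both directions together. The Kupffer cell marker Clec4f stood at 87.91 to 170.1 FPKM in Srebf1 KO livers and 129.3 to 182.2 FPKM in Tbx3 KO livers (log2 difference -0.37, limma adjusted p = 0.412). Col1a2, a fibrillar collagen gene of stellate cells, stood at 13.68 to 39.13 FPKM in Srebf1 KO livers and 6.16 to 58.57 FPKM in Tbx3 KO livers (log2 difference 0.68, limma adjusted p = 0.752). The 58.57 FPKM was that of replicate 7, and Tbx3 KO replicates 1 to 6 reached at most 27.63 FPKM. Summed stellate cell and fibroblast markers were 4995 FPKM in replicate 7, against 1909 to 3033 FPKM in replicates 1 to 6. Cholangiocyte, neutrophil, dendritic cell and B cell sums of replicate 7 also lay above those of replicates 1 to 6. Its endothelial, erythroid, and pancreas and intestine sums lay within their range. Alas2, the erythroid heme synthesis enzyme, did not pass either (log2 difference 0.66, limma adjusted p = 0.0548). Signs were uneven in some of these lists. Stellate cell and fibroblast markers had 26 positive and 2 negative log2 differences (median 0.25, and 0.54 over 10 livers). Kupffer cell and macrophage markers had 3 positive and 15 negative (median -0.27, and 0.01 over 10 livers).

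The lists of the unfolded protein response, interferon response, cell cycle and p53 targets held no call in either fit. Nor did those of the circadian clock, oxidative phosphorylation and immediate early genes. In these lists at most 4 members per direction had an unadjusted p under 0.05 over 12 livers. Of all 16977 genes tested 1593 did, both directions together. Signs of the log2 differences were uneven in some of these lists. For oxidative phosphorylation 5 were positive and 23 negative (median -0.1), and for the interferon response 6 and 24 (median -0.29). No list was tested as a set. Ccnd1, cyclin D1, stood at 62.22 to 94.33 FPKM in Srebf1 KO livers and 80.43 to 459 FPKM in Tbx3 KO livers (log2 difference -1.26, SE 0.31, limma adjusted p = 0.0916). Bbc3, the proapoptotic p53 target also known as PUMA, differed by -1.13 (SE 0.28, limma adjusted p = 0.0826). Complement and coagulation, NRF2 and pentose phosphate, and glucose metabolism lists held none over 12 livers and 1 gene each over 10: C9 lower (-0.49, limma adjusted p = 0.0386), and Gpx1 (0.55, limma adjusted p = 0.0429) and Pcx, pyruvate carboxylase (0.43, limma adjusted p = 0.032), higher in Srebf1 KO.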

How the data were processed

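Total RNA of 12 mouse livers, 5 Srebf1 KO and 7 Tbx3 KO, was analysed. Per the labels' protocols, TRIzol and RNeasy gave the RNA, and a stranded SMARTer kit for total RNA gave the libraries. The authors deposited 1 table of FPKM by gene symbol. featureCounts 1.6.4 and the builds mm10 and GRCh38, without a role, appear in the submitters' processing notes. Aligner, annotation and strand setting: not given in the sources used here, so overlapping and antisense genes may share reads.

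Tested genes reached 1 FPKM in 5 or more of the 12 livers. Genes near 0 in 1 group, Cfd, Cyp2b13, Slc22a29 and Greb1 among them, passed this filter through the other group. Their calls depend in part on that choice. The fit used limma 3.58.1 in R 4.3.3 (eBayes with an intensity trend) on log2(FPKM + 1), two-sided, with Benjamini-Hochberg adjustment over 16977 genes and a threshold of 0.05. Differences on this scale understate those of low genes. No liver was dropped or imputed in the 12-liver fit. Srebf1 and Tbx3 alone were also tested by exact permutation. The fit was tested on simulated data. Named genes are the targeted genes, the 12 highest and 12 lowest called differences with a mean of at least 10 FPKM in the higher group, the 6 highest and 6 lowest called only in the 10-liver fit, and up to 4 called members, or 2 uncalled, of each of 41 gene lists. The list of transcripts of the mitochondrial genome had no member in the table. Of the 140 called symbols, 20 name no characterised gene and were only counted. The members and lists were chosen with earlier results of these data known. Implied depth covers counting error only.

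Alternatives were a pseudocount of 0.1, no filter or an FPKM of 5, median scaling, quantile normalization, all 34 livers in 1 fit, a replicate block, array weights, and leaving out livers. Some members of the lists are counted but not reported by name here.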

Additional observations from a re-analysis of the deposited data

Results flagged for a closer look

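Within a group, a liver was singled out when the gap between the highest or the lowest value and its nearest neighbour was a large share of the group's whole range, by Dixon's test at the 95% level. Of 184 groups of values, those of 52 genes and of the list levels, 12 were singled out, and chance alone gives about 1 in 20. The numbers below are these shares of the range, on the log2(FPKM + 1) scale for genes.

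The library labelled Srebf1 KO replicate 1 was the liver in 3 of them: highest for Srebf1 (0.824) and for Igfbp2 (0.762), and lowest for Serpina7 (0.965). Tbx3 KO replicate 7 was the liver in 5: lowest for Sult1e1 (0.754), Cidea (0.759) and the level of the list of apolipoproteins and lipoprotein assembly (0.848), and highest for Slc13a3 (0.65) and the level of Kupffer cell and macrophage markers (0.693).

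The other 4 came from other livers. Cyp2a5 was highest in Srebf1 KO replicate 3 (0.821), and Greb1 was above 0 in Srebf1 KO replicate 4 alone (1). Among Tbx3 KO livers, Cfd was highest in replicate 6 (0.573) and Adgrg2 was lowest, at 0, in replicate 3 (0.581).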

How the results depend on the processing

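The 140 calls over 12 livers became 236 in the 10-liver fit, 254 with array weights and 93 with the replicate block, and 84 to 215 when 1 liver was left out. The 236 calls over 10 livers became 127 with no filter on low values and 89 with the replicate block, and 120 to 289 when 1 further liver was left out. These alternatives to the 10-liver fit were chosen after seeing the data. The cause of each move was not tested, except that the block leaves fewer livers in the fit. Under the other settings both counts stayed within 1.5 times. Srebf1 mRNA passed with all 34 livers in 1 fit (-1.28), with array weights (-1.29) and in the 10-liver fit (-1.72), and lay between -1.65 and -1.16 when 1 liver was left out. Its value was -1.31 with the replicate block and did not pass there. The 10-liver fit is no separate test of Srebf1, since the library labelled Srebf1 KO replicate 1 was left out for its Srebf1 level. Tbx3 mRNA passed nowhere and kept its sign. Of the 50 other named genes called over 12 livers none changed sign, and over all alternatives their call held 899 times and was lost 151 times. Livers with the same replicate number did not deviate together (correlations -0.09 to 0.025), so the numbers only name livers. Genes with few reads have wide errors, and a value of 0 is below detection.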
